A study of Mus musculus with 8 samples.

Results

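The 9 genes described here, of 34299 in the count table, encode transcription factors of neural progenitors and early neurons, and were followed across 3 groups of mouse whole-brain RNA-seq libraries. They were taken by name: Pax6, Sox2, Emx2 and Lhx2, which mark radial glia, Eomes and Insm1, which mark intermediate progenitors, and the basic helix-loop-helix (bHLH) genes Neurog1, Neurog2 and Neurod1. The groups were wild-type (WT) fetuses at gestation day 15 (3 libraries), fetuses of the same day that lack Cav1 (knockout, KO), which encodes the membrane protein caveolin 1 (3 libraries), and Cav1 KO brains at week 70 (2 libraries). Each library came from a whole brain sample, and the fetal libraries are described as 3 biological replicates per genotype. Strain, sex, litter and the design of the knockout allele are not given in the labels. No WT library of week 70 was analysed here.

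In the fetal forebrain, radial glia divide along the ventricle and are kept as progenitors by factors such as Pax6, Sox2, Emx2 and Lhx2. Proneural bHLH factors, of which Neurog1 and Neurog2 act in the dorsal forebrain, commit some of the daughter cells to a neuronal fate. Many of those cells first become intermediate progenitors, which express Eomes (also called Tbr2) and Insm1 and divide again before they differentiate, and Neurod1 follows as they leave the cycle. In the adult brain, neurogenesis is limited to a few niches, while Sox2 and some of the radial glia factors are also known in astrocytes and adult stem cells.

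Total counts ranged from 19414747 to 20833397 in the WT fetal libraries, from 14110031 to 15245283 in the KO fetal libraries and from 18924304 to 20203233 at week 70. Depth did not overlap between the fetal genotypes and no batch is recorded, so that batch, depth and genotype cannot be told apart. Cav1 itself had 367, 218 and 329 counts in the WT libraries, 0, 3 and 1 in the KO fetal libraries, and 1 and 5 at week 70, which matches the genotype labels. Levels are given below as CPM, the gene's share of the library's counts on a common scale, normalised by the trimmed mean of M-values (TMM) over all 8 libraries. On this scale 3 counts, the limit that a count of 0 allows, correspond to between 0.14 and 0.207 CPM. Molecular identifiers were not used, so this limit is one of counting error alone.

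The upstream windows of the 3 members that were nearly silent at week 70 are shown because those 3 had the largest falls with age. Each window holds the 250 bases before a RefSeq start on GRCm38.p6, read 5′ to 3′ on the strand of the gene. Capitals mark the GC box (GGGCGG on either strand). Neurog1 lies on the minus strand at chr13:56252181-56252430, and Neurog2 and Eomes lie on the plus strand at chr3:127632886-127633135 and chr9:118477939-118478188.
Neurog1: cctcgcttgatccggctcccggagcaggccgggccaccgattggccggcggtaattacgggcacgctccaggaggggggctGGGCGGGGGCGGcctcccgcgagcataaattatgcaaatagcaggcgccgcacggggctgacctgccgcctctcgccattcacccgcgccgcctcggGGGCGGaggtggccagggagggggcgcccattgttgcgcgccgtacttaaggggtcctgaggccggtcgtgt
Neurog2: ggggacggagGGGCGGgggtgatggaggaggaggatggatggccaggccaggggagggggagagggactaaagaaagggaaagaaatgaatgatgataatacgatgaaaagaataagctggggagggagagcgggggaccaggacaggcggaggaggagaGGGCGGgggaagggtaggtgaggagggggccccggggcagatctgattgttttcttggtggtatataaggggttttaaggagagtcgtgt
Eomes: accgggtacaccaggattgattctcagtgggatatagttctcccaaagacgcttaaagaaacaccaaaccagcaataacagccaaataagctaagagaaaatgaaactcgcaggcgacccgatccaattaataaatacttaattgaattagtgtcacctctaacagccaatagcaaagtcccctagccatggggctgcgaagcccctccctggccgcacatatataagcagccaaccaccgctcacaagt
The Neurog1 window is 71.2% GC with 3 GC boxes, that of Neurog2 is 58% GC with 2, and that of Eomes is 46.4% GC with 0. RefSeq windows were found for 8 of the 9 members, the exception being Insm1, and gave 10 windows in all because Pax6 and Lhx2 have 2 each. The GC box was present in 6 of the 10 windows, compared with 32.7% of all 32851 windows of this length. E-boxes (CANNTG), the letters that bHLH factors bind, were found in 2 of the 10 windows, against 66.2% of all windows. One of them, CATATG, stands 242 bases before the Neurod1 start, and the other, CAAATG, stands 20 bases before the second Pax6 start. The N-box (CACNAG), bound by the Hes repressors, was found in 2 of the 10 windows and in 36.7% of all windows. Median GC content was 52.4% over all windows, while the member windows ran from 46.4% (Eomes) to 72.8% (the first Lhx2 window). The shares of windows with a motif were not adjusted for GC content, so these contrasts may reflect base composition. Motifs were searched on both strands and overlapping matches were counted separately. A match describes the letters of the window and is not a measured binding site.

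All 9 members were lower in KO than in WT fetal brain at day 15. Each had enough counts to be tested in all 3 comparisons. The edgeR quasi-likelihood test called each of them past an adjusted p of 0.05, at a median log2 fold change of -1.19 against 0.03 over all genes tested. This count has to be read against a broad difference between the genotypes, since the same fit called 62.6% of the 19147 genes tested, 32.5% of them lower and 30.1% higher in KO. CPM did not overlap between the genotypes for any of the 9 members, nor for 68.5% of all genes. In whole-brain libraries, fewer cells of a type and less RNA per cell cannot be told apart.

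**Figure D1:**
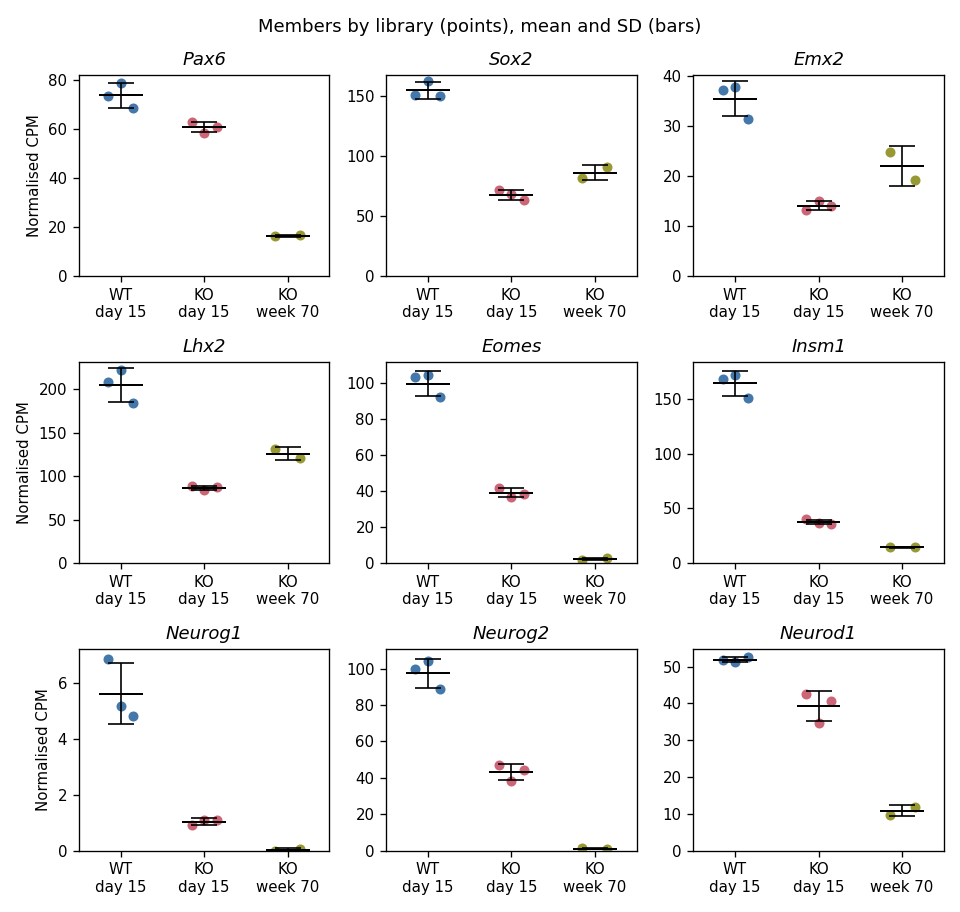
Normalised CPM (vertical axis, linear, a separate scale in each panel) of each member by group, with 1 point per library, the group mean as a line and the SD as a bar. In every panel the 3 WT fetal points lie above the 3 KO fetal points, and at week 70 Sox2, Emx2 and Lhx2 lie between the fetal groups while the other 6 members lie below both.

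Among the radial glia factors, Sox2, an HMG-box factor of neural stem cells, was at 151, 163 and 150 CPM in the WT libraries and at 71.8, 68.7 and 63.4 CPM in the KO fetal libraries. The KO libraries all lay far under the lowest WT library, with a log2 fold change of -1.15 (SE 0.0650, edgeR adjusted p 1.57e-07). The LIM-homeodomain factor Lhx2, which is needed for cortical identity, was at 208, 222 and 184 CPM in WT and at 88.5, 84.5 and 88 CPM in KO. It fell by 1.19 on the log2 scale (SE 0.0751, edgeR adjusted p 3.16e-07). Emx2, a homeodomain factor that patterns the cortex, was at 37.2, 37.7 and 31.4 CPM in WT and at 13.1, 14.9 and 14 CPM in KO. Its log2 fold change was -1.30 (SE 0.1, edgeR adjusted p 1.32e-06). In the TMM fit these 3 genes fell by like amounts, but with the length and GC offset described below they were at -1.12 (Sox2), -0.98 (Emx2) and -0.56 (Lhx2). Pax6, a paired-box factor of dorsal radial glia, departed from them, at 73.3, 79 and 68.7 CPM in WT and 62.7, 58.6 and 60.8 CPM in KO. The groups were separate but close, and the log2 fold change was -0.24 (SE 0.0667, edgeR adjusted p 0.00943). That call was lost with upper-quartile scaling (-0.07, edgeR adjusted p 0.373), and with the offset the sign turned (0.12, edgeR adjusted p 0.167).

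Both factors of intermediate progenitors were lower in KO, and like every other member they fell by more than Pax6 in the TMM fit. Eomes, a T-box factor, was at 103, 104 and 91.8 CPM in the WT libraries and at 41.6, 36.9 and 38.3 CPM in the KO libraries, a log2 fold change of -1.31 (SE 0.0702, edgeR adjusted p 1.1e-07). Insm1, a zinc-finger factor that promotes the formation of these progenitors, was at 168, 172 and 151 CPM in WT and at 40, 37 and 36.1 CPM in KO. The fall of 4.23-fold (log2 fold change -2.08, SE 0.0703, edgeR adjusted p 1.59e-08) was the second largest after that of Neurog1, and with the length and GC offset the log2 fold change was -1.21. Counts of Insm1 were 3593, 3443 and 2993 for the WT libraries and 660, 664 and 622 for the KO libraries.

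The 3 bHLH genes differed in the size of their change, Neurog1 having the largest. Neurog1 was the scarcest member, at 6.88, 5.2 and 4.83 CPM in WT and 0.91, 1.11 and 1.1 CPM in KO. These values rest on 147, 104 and 96 counts in WT and on 15, 20 and 19 in KO, and the log2 fold change of -2.39 had an SE of 0.224 (edgeR adjusted p 5.71e-06). Neurog2, its close relative in cortical progenitors, was at 99.6, 104 and 88.7 CPM in WT and at 47, 38.2 and 44.5 CPM in KO, a log2 fold change of -1.14 (SE 0.0870, edgeR adjusted p 1.26e-06). Neurod1, which acts later in the same lineage, was at 51.7, 51.4 and 52.6 CPM in WT and at 42.5, 34.8 and 40.7 CPM in KO. Its log2 fold change was -0.36 (SE 0.0775, edgeR adjusted p 0.00213). With upper-quartile scaling it was -0.19 and no longer called (edgeR adjusted p 0.0516), whereas the length and GC offset brought it to -0.69, close to the -0.76 of Neurog2 in that fit.

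**Figure D2:**
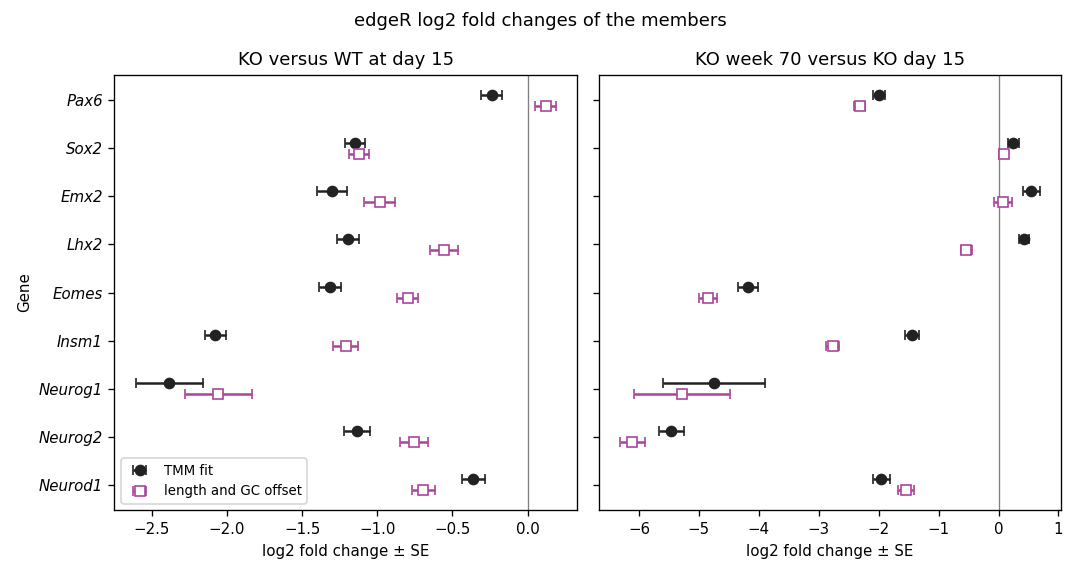
edgeR log2 fold change (horizontal axis) with its SE for each member, KO versus WT at day 15 on the left and KO week 70 versus KO day 15 on the right, in the TMM fit (filled circles) and with an offset for transcript length and GC content (open squares). At day 15 the TMM values run from -2.39 for Neurog1 to -0.24 for Pax6. At week 70 the TMM values of Sox2, Emx2 and Lhx2 stand apart from the 6 members that fell, while with the offset Lhx2 is at -0.54.

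A ratio of 2 genes within a library does not depend on how library sizes are scaled. Ratios of counts were therefore also formed for 2 pairs of members. The ratio of Eomes to Pax6 counts was 1.4, 1.31 and 1.34 in the WT libraries and 0.664, 0.63 and 0.63 in the KO fetal libraries. On the log2 scale the mean ± SD over 3 libraries was 0.43 ± 0.050 for WT and -0.64 ± 0.043 for KO, a difference of -1.08 (exact two-sided permutation p 0.1). Neurod1 to Eomes was at 0.502, 0.495 and 0.573 in WT and at 1.02, 0.944 and 1.06 in KO. The difference of 0.95 on the log2 scale lay between -0.94 ± 0.117 and 0.01 ± 0.086 (SD, n = 3 each, exact two-sided permutation p 0.1). With 3 libraries against 3, 0.1 is the smallest p this test can give, and in both ratios no KO library overlapped a WT library. Thus Eomes fell relative to Pax6 and to Neurod1 in every KO library, which shows unequal change and not which gene changed. With the length and GC offset the first difference was -0.92 and the second only 0.10, so that the shift of Neurod1 against Eomes rests on the uncorrected counts. Pax6 changed least of the radial glia factors, so the first ratio does not stand for them as a set. Sox2 (-1.15), Lhx2 (-1.19) and Emx2 (-1.30) had log2 fold changes close to that of Eomes (-1.31). With the offset Eomes (-0.80) fell less than Sox2 (-1.12) and Emx2 (-0.98), and more than Lhx2 (-0.56).

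**Figure D3:**
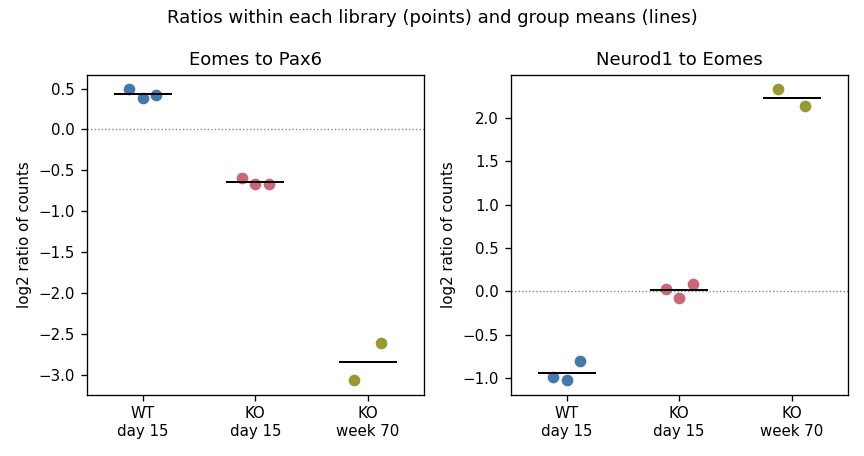
Log2 ratio of counts within each library (vertical axis) for Eomes to Pax6 and Neurod1 to Eomes, 1 point per library and the group mean as a line. The KO fetal points lie below the WT points for Eomes to Pax6 and above them for Neurod1 to Eomes, and the week 70 points lie further in the same direction in both.

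Fold changes between the fetal genotypes moved with the GC content of transcripts, and the members differ widely in it. Over all genes tested, Spearman's rho between GC content and log2 fold change was -0.48 (across 19050 genes, which are not independent). Among the 9 members, which share the same 6 libraries, it was -0.72. The longest annotated transcript of Neurod1 is 43.6% GC and that of Pax6 49.3%, and these were the members that differed least. Sox2 is at 50.5%, Emx2 at 52.2%, Eomes at 53.9% and Neurog2 at 55.9%, and their log2 fold changes lay between -1.31 and -1.14. Neurog1, at 58%, and Insm1, at 62%, had the largest falls, whereas Lhx2 at 58.5% GC did not follow them.

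A fit with an offset for length and GC content, smoothed for each library over all genes, called 8 of the 9 members lower, in a fit that called 51.8% of 19050 genes, 23.9% lower and 27.9% higher. The median of the members was then -0.80, against 0.05 over all genes. Sox2 was nearly the same at -1.12, while Neurog1 moved to -2.06, Insm1 to -1.21, Emx2 to -0.98, Eomes to -0.80, Neurog2 to -0.76 and Lhx2 to -0.56. Neurod1 moved the other way, to -0.69, and passed the threshold in this fit (edgeR adjusted p 3.2e-05). The part of GC content in the genotype difference was not tested beyond this fit.

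**Figure D4:**
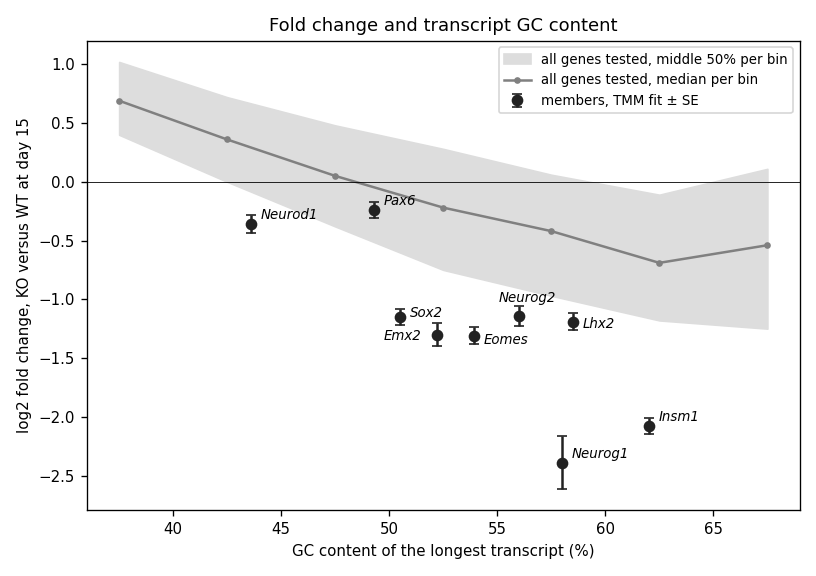
log2 fold change of KO versus WT at day 15 (vertical axis, ± SE) against the GC content of the longest transcript (horizontal axis) for the 9 members, over the median and the middle 50% of all genes tested in GC bins 5 points wide. The line for all genes falls from 0.69 in the bin from 35 to 40% GC to -0.69 in the bin from 60 to 65%, and every member lies below it.

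Compared with each other per kilobase of exon, Sox2 had the highest and Neurog1 the lowest level in both fetal groups, while Insm1 changed its place in the order. In WT, Sox2 was highest at 75.3 ± 3.52 CPM per kb (SD, n = 3), followed by Insm1 (52.8), Lhx2 (46.6) and Neurog2 (43.8). The ranges over libraries overlapped for Insm1 and Lhx2, and for Lhx2 and Neurog2. Within each WT library, however, Insm1 was above Lhx2 and Lhx2 above Neurog2. Eomes (24), Neurod1 (19), Emx2 (11.8), Pax6 (6.3) and Neurog1 (3.34 CPM per kb) came next without overlap. In KO fetal brain Sox2 was again highest at 33.1 ± 2.07 CPM per kb (SD, n = 3), then Lhx2 (19.8) and Neurog2 (19.4), which overlapped. Insm1 stood lower, at 12.2 CPM per kb, after Neurod1 (14.4) and before Eomes (9.37), Pax6 (5.19), Emx2 (4.66) and Neurog1 (0.618). The ranges of Neurod1 and Insm1 overlapped, but Neurod1 was above Insm1 within each KO fetal library. The level of Pax6 per kb is sensitive to the annotation, because its exons join to 11694 bases whereas its longest transcript has 4427. The same holds for Lhx2 (4393 and 2840 bases) and to a smaller extent for Eomes (4155 and 3560). The places of these genes in the order, that of Lhx2 against Insm1 among them, therefore depend on the exon length used.

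Companion genes, 84 in 5 lists of progenitor, commitment, bHLH and ventral, differentiation and proliferation genes, changed mostly in the same direction at day 15. Of the 82 tested, 59 were called lower and 8 higher in KO, at a median log2 fold change of -0.78, in the fit that called 62.6% of all genes, and with the length and GC offset 54 were lower and 6 higher. Among 22 other radial glia and progenitor genes, 19 were lower and 2, Fabp7 and Hopx, were higher, while Otx2 was not called (median -1.01). With the offset 17 of this list were lower and only 1 was higher, at a median of -0.86. Nes, for the intermediate filament nestin, went from 294 ± 23.4 to 54.2 ± 3.52 CPM (SD, n = 3 each), a log2 fold change of -2.40 (edgeR adjusted p 1.59e-08) that was -1.50 with the offset. Emx1, a marker of the dorsal forebrain, fell by 0.98 on the log2 scale (edgeR adjusted p 9.74e-05) and lost its call with the offset and the replicate block together (edgeR adjusted p 0.0591). The Notch effectors Hes1 and Hes5 fell by 0.70 and 0.54 on the log2 scale (edgeR adjusted p 0.000392 and 0.00301), Hes5 losing its call with the offset (-0.17, edgeR adjusted p 0.181). Fabp7, the brain lipid binding protein of radial glia, had a log2 fold change of 1.52 and Hopx of 0.54, and both were named after their values were seen.

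Genes of intermediate progenitors and commitment gave 10 lower and 1 higher of 15, at a median of -0.47 (7 lower and 1 higher with the offset, median -0.34). Dll1, a Notch ligand of committing cells, went from 61.4 ± 1.66 to 33.9 ± 0.905 CPM (SD, n = 3 each, log2 fold change -0.82, edgeR adjusted p 1.09e-06), but with the offset its log2 fold change was only -0.24 (edgeR adjusted p 0.00905). Gadd45g fell by 0.75 and the cell cycle inhibitor Btg2 by 0.35 on the log2 scale, and Btg2 lost its call in 4 of 16 alternatives. Hes6, which opposes Hes1, fell by 0.49, but with the offset it was at -0.02 (edgeR adjusted p 0.864). Neurod4 was at 4.75 ± 0.851 and 5 ± 1.65 CPM (SD, n = 3 each), with no stable sign, and St18, Nhlh2 and Ppp1r17 were also not called. Elavl2, an RNA-binding protein gene named after its value was seen, was higher (0.61).

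In the list of other neurogenic bHLH and ventral progenitor factors, 10 of the 16 tested genes were lower and 1, Id2, was higher (median -0.97, and -0.41 with the offset). Olig2 went from 22.9 ± 1.61 to 9.88 ± 0.761 CPM (SD, n = 3 each, log2 fold change -1.17, edgeR adjusted p 3.77e-06), and was at -0.59 with the offset (edgeR adjusted p 0.00054). Gsx2, a ventral homeodomain factor, fell by 0.99 on the log2 scale (edgeR adjusted p 0.00258), so that lower values were not limited to dorsal genes. Id1, Id3, Dlx1, Atoh1 and Tcf4 were not called, and Ptf1a and Neurog3 were too scarce to test.

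Of 17 genes of neuronal differentiation, 13 were lower and 2, Neurod6 and Stmn2, were higher in KO (median -0.81). With the offset 11 were lower and 0 higher, at a median of -0.51, so that neither of these 2 was called higher in that fit. Tbr1, a T-box factor of early cortical neurons, went from 206 ± 14.2 to 57.9 ± 2.39 CPM (SD, n = 3 each, log2 fold change -1.79, edgeR adjusted p 2.19e-08). Neurod2 fell by 0.52 on the log2 scale, whereas Neurod6 was higher, from 228 ± 16.5 to 358 ± 35 CPM (log2 fold change 0.69, edgeR adjusted p 4.05e-05). Neither holds with the offset, which gave 0.18 for Neurod2 and 0.08 for Neurod6 (edgeR adjusted p 0.0828 and 0.347). Dcx, for the microtubule protein doublecortin of migrating neurons, was at 1760 ± 81.4 and 1560 ± 69.8 CPM and did not pass the threshold (log2 fold change -0.14, edgeR adjusted p 0.0842), nor did Elavl4. Dcx passed it in 7 of 16 alternatives, among them without WT replicate 1 (-0.19, edgeR adjusted p 0.0241), without KO replicate 3 (-0.17, edgeR adjusted p 0.0485) and with the offset (-0.20, edgeR adjusted p 0.0084).

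Proliferation markers gave 7 lower and 2 higher of 12, at a median of -0.56. Mki67, for the Ki-67 antigen of dividing cells, went from 231 ± 22.6 to 131 ± 9.16 CPM (SD, n = 3 each, log2 fold change -0.77, edgeR adjusted p 1.59e-05), and was at -0.34 with the offset (edgeR adjusted p 0.00345). Pcna and Cdk1 were the 2 higher genes (0.83 and 0.26), and Bub1, Cenpe and Ccnb1 were not called. With the offset 9 were lower and 2 higher, so that the list held calls in both directions.

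**Figure D5:**
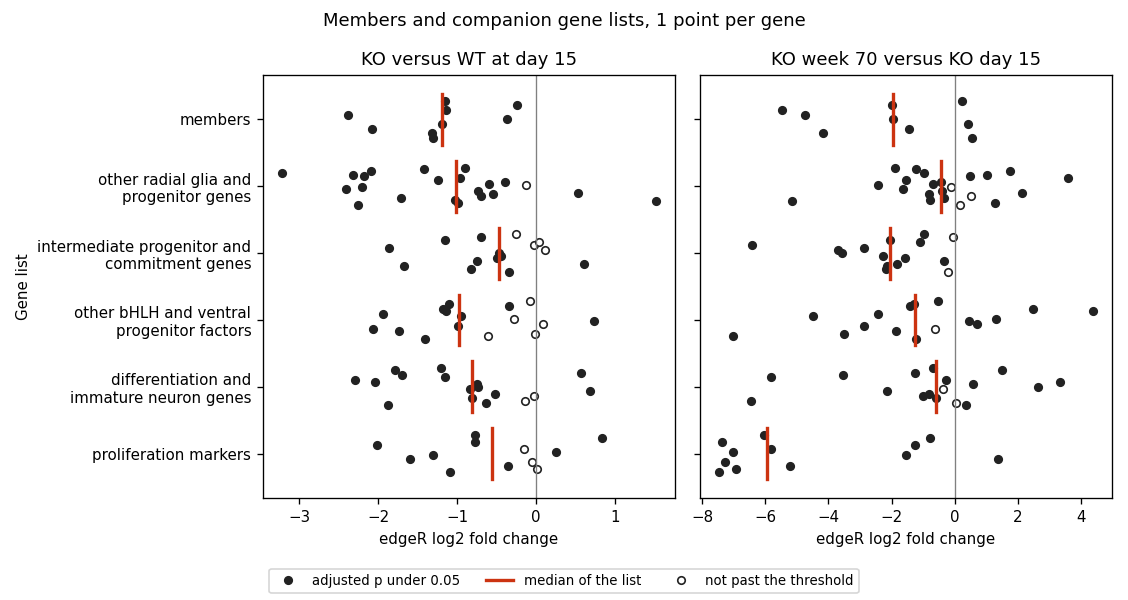
edgeR log2 fold change (horizontal axis) of each tested gene of the members and of the 5 companion lists, KO versus WT at day 15 on the left and KO week 70 versus KO day 15 on the right. Filled points passed the threshold, open points did not, and red lines mark the list medians, which run from -1.19 to -0.47 at day 15 and are all below 0 for age as well.

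Markers of other cell types moved between the fetal genotypes as well, and their part in the results on the members was not tested. The summed CPM of 7 endothelium markers was 185 to 254 in WT and 58.4 to 74.2 in KO, and that of 8 fibroblast and meninges markers 346 to 4480 in WT and 76.4 to 165 in KO. Erythroid markers (7 genes) summed to 1030 to 1310 CPM in WT and 3600 to 4420 in KO. Eye markers, which matter because Pax6, Sox2 and Lhx2 are also eye factors, summed over 9 genes to at most 8.2 CPM in WT and 5.46 in KO. The lens crystallin Cryaa and the pigment gene Tyr had 3 counts or fewer in each fetal library. The olfactory epithelium list of 6 genes summed to 29.7 to 30.2 CPM in WT and 18.2 to 21.2 in KO. All 9 members were called in KO versus WT whichever fetal library was left out.

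The comparison by age used KO brain alone, with 2 old against 3 fetal libraries. Total counts did not overlap between these groups either (14110031 to 15245283 at day 15, 18924304 to 20203233 at week 70). Batch, depth and age therefore cannot be told apart. Here the members split into 2 sets: Neurog2, Neurog1, Eomes, Pax6, Neurod1 and Insm1 fell, while the TMM fit put Emx2, Lhx2 and Sox2 somewhat higher at week 70. All 9 passed the threshold, in a comparison in which edgeR called 82% of 20000 genes, 44.4% lower and 37.6% higher. No member's CPM overlapped between the ages, and neither did that of 87.9% of all genes. The median log2 fold change was -1.96 for the members and -0.19 for all genes tested.

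Neurog2 fell furthest by the fit, to 1.25 and 0.828 CPM at week 70 (19 and 12 counts), a log2 fold change of -5.46 (SE 0.203, edgeR adjusted p 2.19e-09). Eomes was at 1.91 and 2.69 CPM (29 and 39 counts), with a log2 fold change of -4.18 (SE 0.170, edgeR adjusted p 4.19e-09). Both stayed above the limit of 3 counts in each library, and with the length and GC offset they were at -6.11 (Neurog2) and -4.85 (Eomes). Neurog1 had 0 and 1 counts at week 70 against 54 in the 3 KO fetal libraries, a ratio of rates of 31 with an exact 95% counting interval from 5.33 to 1250. Its fitted log2 fold change depends on the prior count and is not given as a size.

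Pax6 stood at 16.2 and 16.6 CPM at week 70, a fall of 3.98-fold from KO day 15 (log2 fold change -1.99, SE 0.0987, edgeR adjusted p 1.76e-08). Neurod1 was at 9.76 and 11.9 CPM, with a log2 fold change of -1.96 (SE 0.141, edgeR adjusted p 3.42e-07). Insm1 was at 14.5 and 15.2 CPM, a log2 fold change of -1.44 (SE 0.111, edgeR adjusted p 5.55e-07) that was -2.77 with the length and GC offset. These 3 genes therefore remained well above the count limit in old brain, with at least 148 counts in each library. Granule neurons of the cerebellum and dentate gyrus are a known adult site of Pax6 or Neurod1, and the summed CPM of 8 granule neuron and cerebellar markers was 99 to 106 at KO day 15 and 207 to 248 at week 70. Of the 7 of these markers that were tested, 3 were called higher (Calb1, Cbln3 and C1ql2) and 2 lower (Cbln1 and Pcp2), while Prox1 and Dsp were not called. The part of granule neurons in the levels of Pax6 and Neurod1 was not tested.

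The 3 radial glia factors that did not fall in the TMM fit were at levels between the fetal genotypes. Sox2 was at 81.9 and 90.8 CPM at week 70, Lhx2 at 131 and 121 CPM, and Emx2 at 24.7 and 19.2 CPM, all above every KO fetal library and below every WT fetal library. Against KO day 15 the log2 fold changes were 0.25 for Sox2, 0.43 for Lhx2 and 0.55 for Emx2 (edgeR adjusted p 0.0286, 0.0007 and 0.00569). None of these 3 rises is stable: with upper-quartile scaling the values were -0.01, 0.18 and 0.30 and none was called (edgeR adjusted p 0.959, 0.0678 and 0.0896). With the length and GC offset they were 0.08, -0.54 and 0.07, of which the fall of Lhx2 passed the threshold (edgeR adjusted p 0.000474). In that fit 7 members were called lower and 0 higher, against 41% and 37.8% of the 19896 genes tested (78.8% in either direction). The Sox2 call was also lost with the replicate number as a block (edgeR adjusted p 0.0971), with no filter on low counts (0.0587) and with DESeq2 (adjusted p 0.0582). It was lost too without KO day 15 replicate 2 (0.25, edgeR adjusted p 0.0707) or 3 (0.20, edgeR adjusted p 0.0621) and without week 70 replicate 2 (0.17, edgeR adjusted p 0.146). Over all genes tested, the median was -0.19 with TMM and -0.44 with upper-quartile scaling in this comparison, and 0.03 and 0.20 between the fetal genotypes.

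Markers of mature glia were much higher at week 70, with a summed CPM over 8 astrocyte genes of 153 to 170 at KO day 15 and 5940 to 6310 at week 70. The oligodendrocyte list of 8 genes went from between 92.4 and 105 to between 13500 and 13600 CPM. Their part in the levels of Sox2, Lhx2 and Emx2 was not tested. Some other lists differed between the 2 week 70 libraries. The 6 choroid plexus markers summed to 72.6 CPM in 1 library and 2400 in the other, and 4 endocrine markers to 3.03 and 57.2. The part of this difference in the comparison by age was not tested. The ratio of Eomes to Pax6 counts was 0.12 and 0.164 at week 70, and Neurod1 to Eomes was 5.03 and 4.39, so that both lay beyond the fetal KO values on the side away from WT. Per kilobase of exon, the order at week 70 was Sox2 (42 CPM per kb), Lhx2 (28.6), Emx2 (7.31), Insm1 (4.79), Neurod1 (3.98), Pax6 (1.4), Eomes (0.554), Neurog2 (0.467) and Neurog1 (0.0205, under the count limit). Eomes and Neurog2 overlapped, and the other neighbours did not. As in the fetal groups, the places of Lhx2, Pax6 and Eomes depend on the exon length used.

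Of the 82 tested companion genes, 57 were called lower and 17 higher at week 70 than at KO day 15, a total of 74 in a fit that called 82% of all genes. With the length and GC offset 58 were lower and 14 higher, in a fit that called 78.8% of all genes. All 12 proliferation markers were called, 11 lower and 1, the cyclin gene Ccnd1, higher, and Mki67 went to 0.345 and 1.32 CPM. Dcx fell by 6.44 on the log2 scale (-5.59 with the offset), to 18.6 and 19.9 CPM. Genes of intermediate progenitors and commitment gave 13 lower and 0 higher of 15, Dll1 at a log2 fold change of -2.19 and Hes6 at -1.56 (edgeR adjusted p 1.03e-07 and 5.92e-07, and -2.93 and -2.44 with the offset), while Btg2, at 52.6 and 14 CPM, was not called and Sstr2 was not either. Btg2 turned from -1.45 without week 70 replicate 1 to 0.45 without replicate 2, and Gadd45g, at -0.34, lost its call without KO day 15 replicate 1 or 2 or week 70 replicate 2 (edgeR adjusted p 0.106, 0.136 and 0.178). Other radial glia and progenitor genes were mixed, with 13 lower and 6 higher of 22 (14 lower and 4 higher with the offset). Among them Nes fell by 1.63 on the log2 scale (-2.50 with the offset), whereas Emx1 had a log2 fold change of 1.27 that was 0 with the offset.

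In the bHLH and ventral list, 10 genes were lower and 5 higher of 16, the higher ones being Olig1, Olig2, Id1, Id2 and Id3. With the offset 10 were lower and 6 higher. Olig2, also a factor of the oligodendrocyte lineage, was at 59.4 CPM in both week 70 libraries, a log2 fold change of 2.49 (edgeR adjusted p 6.11e-09, and 1.56 with the offset), whereas Gsx2, which was called lower, was left at 0.066 and 0.552 CPM. Differentiation genes gave 10 lower and 5 higher of 17 in the TMM fit, with Tbr1, Rbfox3, Scrt1 and Bcl11b among the higher ones. With the offset 11 were lower and 3 higher. Tbr1 was at 175 and 178 CPM (log2 fold change 1.51, edgeR adjusted p 3.87e-08), while Neurod6 and Neurod2 fell by 2.13 and 0.80.

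Set against WT day 15 instead, where age and genotype differ together and cannot be told apart, all 9 members were lower in KO brain at week 70. edgeR called 78.6% of 19465 genes in this comparison, 41.9% lower and 36.7% higher, and CPM did not overlap for 86.5%. With the offset all 9 were again lower, where 76.9% of 19378 genes were called, 38.8% lower and 38.1% higher. The smallest differences were those of Emx2, Lhx2 and Sox2, with log2 fold changes of -0.70, -0.71 and -0.86 (edgeR adjusted p 0.00305, 0.000341 and 3.33e-05). Pax6 and Neurod1 were at -2.19 and -2.27, Insm1 at -3.48, Eomes at -5.45 and Neurog2 at -6.55. Neurog1 had 347 counts over the WT libraries and 1 over the week 70 libraries, a ratio of rates of 168 with an exact 95% counting interval from 29.9 to 6650. This comparison shares its WT libraries with the fetal comparison and its week 70 libraries with the comparison by age, so the 3 sets of values are not independent.

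Over the 8 libraries, Insm1 and Neurog1 followed the mean standardised profile of the other members most closely (Pearson's r 1.00 and 0.99), and Emx2 least (0.59), as a description of 3 groups rather than 8 independent points. Of 13013 other genes with a mean of at least 50 counts, the 5 whose log2 CPM correlated best with the mean profile of the 9 members had r between 0.9981 and 0.9988, and Vash1, Nr2f1, Cd276 and Mcm3 were among them. Vash1 was at 129 to 146 CPM in WT, 55 to 60.8 in KO fetal brain and 34.4 to 34.8 at week 70. Nr2f1, a nuclear receptor that patterns the cortex, ranged from 323 to 349, from 187 to 190 and from 133 to 138 CPM in the same groups. Mcm3, a subunit of the replicative helicase, ranged from 45.5 to 56.5, from 11.9 to 14.5 and from 4.68 to 5.17 CPM.

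Some members share their position with other transcripts, and where exons overlap their reads cannot be told apart, on opposite strands because no strand setting is stated. On GRCm38 (GENCODE M21), Emx2 at chr19:59458372-59465357 shares 264 exon bases with the antisense gene Emx2os, which held 61 to 121 counts. Eomes at chr9:118478212-118486132 shares 118 exon bases with the antisense Gm33460, which had at most 21 counts. Neurod1 at chr2:79452521-79456751 shares 154 exon bases with Gm26755 on the opposite strand, for which no value was used here. It also shares 201 exon bases with Cerkl on its own strand, which had at most 28 counts. The single-exon gene Sox2 at chr3:34650405-34652461 lies within an intron of Sox2ot, a transcript on the same strand with 741 to 1339 counts, and shares 0 exon bases with it. Pax6 (chr2:105668900-105697364) and Lhx2 (chr2:38339281-38369733) overlap antisense genes outside their exons only. Insm1 (chr2:146221921-146225020), Neurog1 (chr13:56250478-56252163) and Neurog2 (chr3:127633135-127635631) overlap no other annotated gene.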

How the data were processed

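Whole-brain RNA-seq libraries of polyadenylated RNA were primed with random hexamers, per the labels' protocols. Per the file headers, the values that the authors deposited are raw counts for each gene and library, in 1 table. HISAT2 and featureCounts are among the tools, and GRCm38 and GRCm39 the builds, named in the submitters' processing notes; strand and multi-mapping settings are not given in the sources used here. Groups followed the sample titles.

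The test was that of edgeR 4.0.16 under R 4.3.3 (filterByExpr, TMM, two-sided quasi-likelihood F-test, Benjamini-Hochberg over all genes tested, threshold 0.05), with only the libraries of the 2 groups compared. The SE is the log2 fold change divided by the root of F. Alternatives were DESeq2 1.42.0, scaling by RLE or by the upper quartile, a filter at a mean of 10 counts or none, a joint fit of all 8 libraries, a replicate block, removal of each library in turn, removal of haemoglobin and mitochondrial genes, and an offset smoothed on transcript length and GC content with mgcv 1.9.3. Length and GC came from GENCODE M21 and were known for 99.5% of the genes tested at day 15. The scripts were run on simulated counts in which 200 genes changed by 1 on the log2 scale, far fewer than were called in these data. The test recovered 93% of them for KO versus WT at day 15, 86% for the comparison by age and 72% for week 70 against WT. False calls made up 9.27, 11.3 and 10.6% of the calls in the same order, more than the threshold of 0.05 allows. The p-values measure the spread between these libraries.

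Named genes were the 9 members, 18 companion genes fixed by name and the 5 most similar profiles; any other gene was chosen after its values were seen. Some of the genes named by this rule are not reported here. The members and lists were chosen with earlier results of these data known.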

Additional observations from a re-analysis of the deposited data

How the results depend on the processing

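At day 15 all 9 members were called with each library left out (9 to 9), 8 with the length and GC offset and 7 with upper-quartile scaling, which called 12542 of 19147 genes in all and raised the share of calls higher in KO over all genes from 48.1 to 60.8%. By age the count was 9, 8 to 9 with 1 library left out, 7 with the offset and 6 with upper-quartile scaling, which called 16457 of 20000 genes. Companion calls ranged from 65 to 69 and from 70 to 75 with 1 library left out. The offset moved the Eomes to Pax6 difference from -1.08 to -0.92 and that of Neurod1 to Eomes from 0.95 to 0.10, and leaving out 1 library left both ratios within their spread.

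Signs turned as follows, and the cause was not tested. At day 15 with the offset, without and with the block, Pax6 was at 0.12 in both, Neurod4 at -0.56 and -0.57 (main 0.12), and Neurod2 at 0.18 and 0.19. With 1 library left out Neurod4 ran from -0.19 (without KO replicate 3) to 0.26, and was at -0.04 without WT replicate 3. Dcx was at 0.04 with upper-quartile scaling. By age Sox2 was at -0.01 with upper-quartile scaling, Lhx2 at -0.54 and -0.47 with the offset, without and with the block, and Btg2 at 0.45 without week 70 replicate 2 and -1.45 without replicate 1. Week 70 against WT gave Emx1 -0.21 and -0.33 with the offset, without and with the block, and without week 70 replicate 2 Hes1 at 0.25 and Btg2 at 0.14 (-0.62 and -1.76 without replicate 1).

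Deviations of same-numbered fetal libraries had r between -0.19 and -0.15 over 3 pairs, and those of differently numbered libraries between 0.06 and 0.09. Whether same-numbered libraries share a litter or batch cannot be told from these values. With the replicate block 9 members were called at day 15 and 8 by age. Of 414 alternative values for members, 395 kept their direction and side of the threshold, 14 lost the call and 5 reversed. Depth limits the size for Neurog1 at week 70.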
